A study of Mus musculus with 8 samples.

Results

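Cytosolic ribosomal protein genes were examined in red fluorescent cortical cells, sorted from mice with either an intact Dnmt1 gene or one that the Cre recombinase can delete. Members were the protein-coding genes whose symbol is Rpl or Rps followed by a number and at most one of the letters a, x, l and y, together with Rplp0 to Rplp2 and Rpsa. The rule found 80 genes among the 55573 gene identifiers of the count files, of which 49 encode proteins of the large subunit and 31 proteins of the small subunit. Another 3 genes, Rps4l, Rpl32l and Rpl6l, match the symbol pattern but are annotated as pseudogenes and were left out.

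The cytosolic ribosome is built from ribosomal RNA and one copy of most of these proteins, so the genes are transcribed in every cell and usually move together. Their messages carry a terminal oligopyrimidine tract (TOP), a run of C and T bases that begins at the first transcribed base, through which the mTORC1 kinase and the RNA-binding protein LARP1 set how strongly they are translated. Neurons, astrocytes and oligodendrocytes all express them. Many members also have processed pseudogenes, which are intronless copies scattered through the genome, and several hold small nucleolar RNA genes in their introns.

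The 4 groups were mice of 6 months and 18 months carrying PV-Cre, the tdTomato reporter and either wild-type Dnmt1 (WT) or the Dnmt1 loxP2 allele (KO), on a C57BL/6 background, called young and old below. All groups carried the Cre driver, which is expressed from the parvalbumin locus and labels the fast-spiking parvalbumin interneurons of the cortex, and all carried the reporter. The loxP sites flank exons 4 and 5 of Dnmt1, so deletion was limited to cells that had expressed Cre, and the floxed line came from a B6;129Sv stock. Dnmt1 encodes the DNA methyltransferase that copies methylation marks. Each group had 2 libraries, which the design describes as technical replicates of cells pooled from 6 WT and 6 KO mice. The p-values below therefore reflect how much libraries of pooled cells vary, which may be technical, rather than how much animals vary.

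Library totals ranged from 6008175 to 13551218 counts. Dnmt1 itself had 97.9 and 104 CPM (counts per 1000000 of the adjusted library total) in young WT and 77.2 and 75.2 in young KO. This was a log2 fold change of -0.40 (adjusted p = 0.0001, edgeR). In old mice Dnmt1 reached 80.8 and 81.1 CPM with the intact gene and 74.3 and 76.6 with the floxed one (adjusted p = 0.281, edgeR), and a count over the whole gene cannot show the loss of 2 exons in part of the cells. The labelled cell type was not borne out by its defining marker, since Pvalb had 6 reads in all over the 8 libraries. Summed CPM of 10 oligodendrocyte markers was 13734 and 13762 in 6-month WT, 29889 to 30703 in 6-month KO, 40115 and 40140 in 18-month WT, and 27148 and 27545 in 18-month KO libraries. Summed CPM of 10 astrocyte markers was 11794 to 11860, 7180 to 7200, 4075 to 4114 and 8844 to 8876 in the same order, against at most 506 for 10 parvalbumin interneuron markers. Libraries of WT at 6 months also stood apart in Gm26917, which is annotated as a long noncoding RNA gene. It took 9.29% and 9.97% of their counts and 1.67% to 4.98% elsewhere, and what its reads derive from was not tested. Mitochondrial ribosomal RNA took 0.672% and 1.04% of counts in young WT and 6.15% and 4.32% in young KO libraries. In old mice its share was 4.3% and 2.68% in WT and 1.76% and 2.22% in KO libraries. In such bulk samples, fewer cells of a type and less RNA per cell cannot be told apart.

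The start sites of the members were searched for the pyrimidine run by which the family is usually recognised. For some members, 30 bases around the RefSeq start (GRCm38.p6) are printed, the first transcribed base being base 16 of each line. All of these but Rpl7a are named in the results, and other named members with a window are not printed. They show whether a run of at least 8 pyrimidines is found within 20 bases of the start. A TOP would begin at the first transcribed base, so a run elsewhere near the annotated start is not by itself a TOP. Capitals mark the run, and lines wholly in lower case have none. The run of Rpl4 begins upstream of the bases printed and ends before the first transcribed base.
Rpl4 (chr9:64173372-64173401, plus strand): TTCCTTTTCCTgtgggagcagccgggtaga
Rps9 (chr7:3704026-3704055, plus strand): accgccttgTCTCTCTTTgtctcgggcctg
Rpl14 (chr9:120571502-120571531, plus strand): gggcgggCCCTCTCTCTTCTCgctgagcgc
Rplp2 (chr7:141447636-141447665, plus strand): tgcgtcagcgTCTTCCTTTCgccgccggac
Rps26 (chr10:128626492-128626521, minus strand): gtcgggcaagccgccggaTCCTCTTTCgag
Rps6 (chr4:86857353-86857382, minus strand): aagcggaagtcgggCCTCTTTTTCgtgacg
Rpl7a (chr2:26910792-26910821, plus strand): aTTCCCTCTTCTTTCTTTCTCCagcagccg
Rps3 (chr7:99483695-99483724, minus strand): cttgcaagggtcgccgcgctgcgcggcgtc
Rps15 (chr10:80292416-80292445, plus strand): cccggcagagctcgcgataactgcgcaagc
Rplp0 (chr5:115559452-115559481, plus strand): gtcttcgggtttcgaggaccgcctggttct
Rpl10a (chr17:28328456-28328485, plus strand): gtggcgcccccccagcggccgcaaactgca
Rpl12 (chr2:32961697-32961726, plus strand): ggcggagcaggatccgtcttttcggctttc

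Over the 60 members with a RefSeq window of 250 bases before to 50 after the start, 29 (48.3%) held such a run, against 20.8% of the 27025 genes with a window. A start base C followed by C or T was present in 26.7% of the members and 9.47% of all genes. CCGGAAG, a core recognised by Ets family factors, was found on either strand in 24 members (40.0%) and in 9.12% of all genes. AAGATGGC, a core recognised by YY1, was found in 6.67% and 2.88%, and TATAAA in 8.33% and 14.2%. The median number of CpG dinucleotides in a window was 21 in the members and 7 in all genes. Large and small subunit genes had runs in 48.6% and 47.8% of their windows, so the subunits resembled each other in this feature. A run or motif found in these letters is a description, and the starts used in the sorted cells were not measured here.

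The members spanned a wide range of levels, measured as CPM per kilobase of merged exons. This measure allows for length, but it also depends on how many alternative exons are annotated. The median length was 1750 bases for merged exons and 882 for the principal transcript. The ratio of these lengths was 1.0 in Rplp1, 1.3 in Rpl4 and 1.26 in Rps15, but 6.05 in Rps19 and 6.79 in Rpl35a. Its part in the order of levels was not tested. Among the 74 members that passed the filter on low counts, the mean over 8 libraries ran from 0.804 to 98.7 CPM per kb, a 123-fold range. Among the highest were Rplp1 at 98.7, Rpl4 at 85.1, Rpl8 at 79.5, Rps15 at 77.2 and Rplp0 at 27.8 CPM per kb. Rplp1 and Rplp0 belong to the acidic stalk that recruits translation factors, Rpl4 lines the tunnel through which the new peptide leaves, Rpl8 lies beside the peptidyl transferase centre, and Rps15 sits on the head of the small subunit. The median was 4.41 CPM per kb for the large and 3.73 for the small subunit, and the median member stood at percentile 56.9 of the 17608 protein-coding genes with reads. Only 9 members were in the top 10% of these genes and 32 were below their median.

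**Figure D1:**
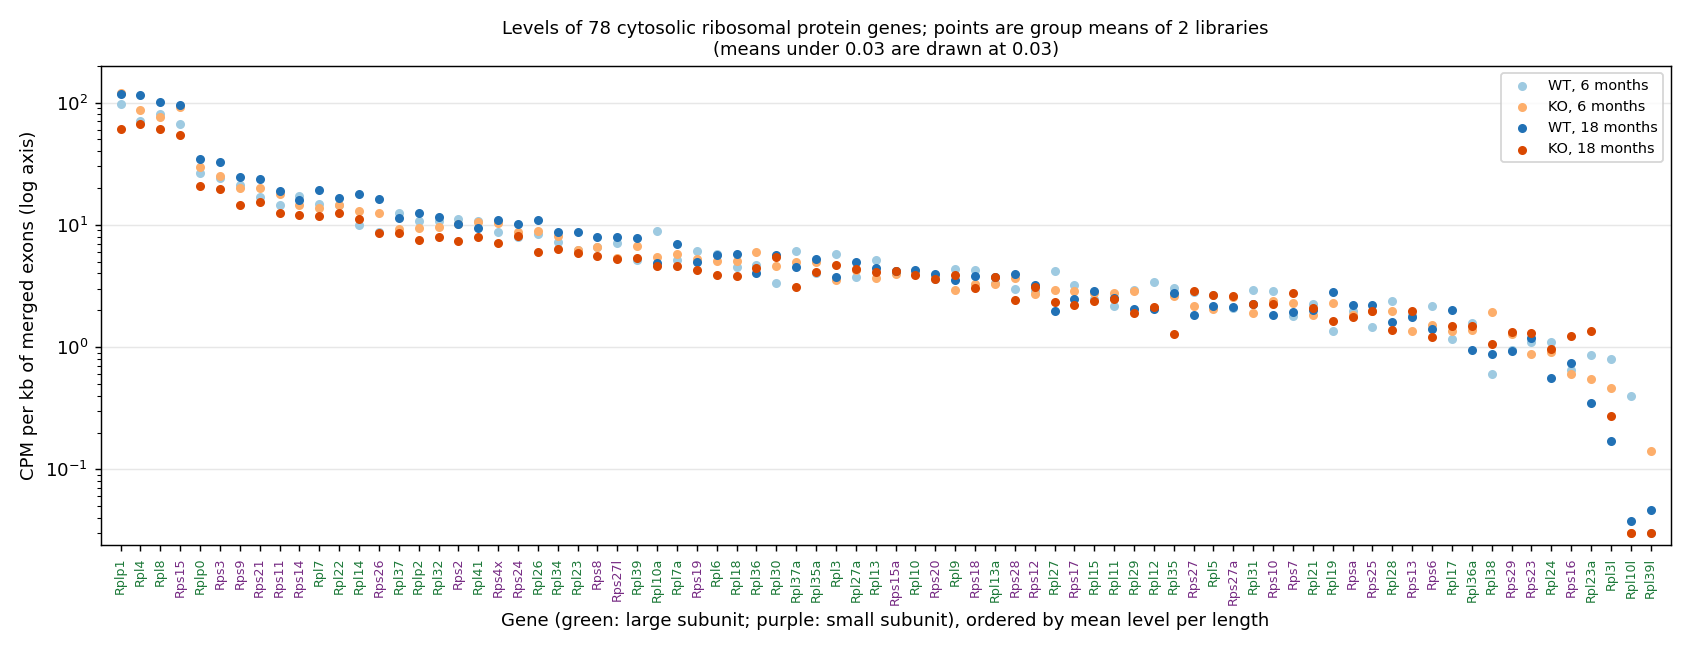
Mean level of 78 members in each group, in CPM per kb of merged exons on a log axis, with genes ordered by their mean over 8 libraries and each point the mean of 2 libraries. The 5 leading genes shown lie between 27.8 and 98.7 CPM per kb, and KO at 18 months (dark orange) is the lowest point for most of the higher genes.

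The 6 members that did not pass the filter had few reads over all libraries. Rps29 had 59 reads, Rpl23a 52, Rpl38 47, Rpl3l 46, Rpl10l 6 and Rpl39l 3. Rps29, Rpl23a and Rpl38 are standard parts of the ribosome, while Rpl3l is a copy of Rpl3 known from muscle and Rpl10l and Rpl39l are copies known from the testis. No fold change is given for them.

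Members differed in how much sequence they share with other genes, and those with the least unique sequence were among the lower ones. The share of 50-base stretches of the principal transcript that occur in no other annotated transcript ran from 1.4% in Rps27 to 100% in 3 members, with a median of 50.7%. Of the 20 members below 25% unique none reached 10 CPM per kb, the highest being Rpl10a at 5.95, whereas 5 of the 13 members above 75% did. Across the 80 genes, Spearman's rho between level per length and unique share was 0.328, with all genes measured in the same libraries. Reads on 297 named pseudogenes of 59 members came to 2.21 to 3.81 per 100 member reads. The sources used here do not say how reads with several matches were counted, so levels of the less unique members are uncertain, and the part of this in the order of levels was not tested.

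**Figure D2:**
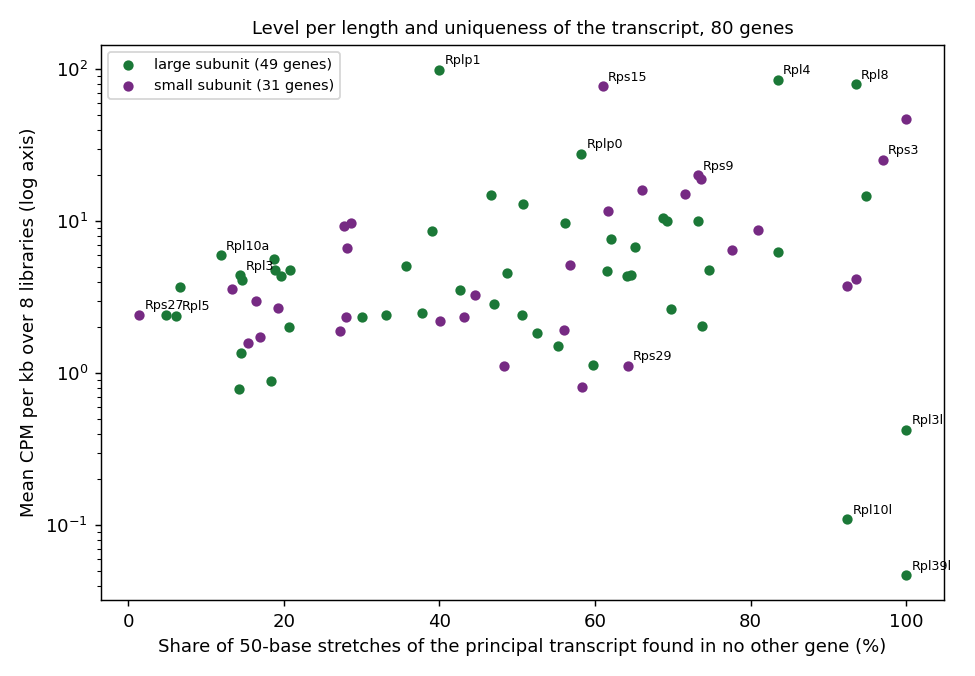
Mean level over 8 libraries in CPM per kb (log axis) against the share of 50-base stretches of the principal transcript found in no other gene, with 1 point per member. Genes under 25% unique all lie below 5.95 CPM per kb or at it, and the 3 tissue-restricted copies Rpl3l, Rpl10l and Rpl39l lie at the lower right.

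As a family, the members were a small share of each library. They took 0.122% to 0.170% of all counts, and the 6 genes with the highest level per length gave 37.3% to 44.1% of those reads. Summed CPM of the 80 genes was 1384 and 1423 in 6-month WT, 1446 and 1463 in 6-month KO, 1648 and 1775 in 18-month WT, and 1160 and 1177 in 18-month KO libraries. Both libraries of WT at 18 months were above, and both of KO at 18 months below, all libraries of the other groups. Set against reads on 79 mitochondrial ribosomal protein genes, which build the separate ribosome of mitochondria, the ratio of member reads was 1.09 ± 0.0111 (SD, n = 2) in young WT and 1.20 ± 0.00852 in young KO. In old WT it was 1.28 ± 0.0173, and in old KO 0.995 ± 0.00817 (SD, n = 2). With 2 libraries a group an exact permutation test cannot give a two-sided p below 0.333, so no test of these sums is reported.

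Large and small subunit genes kept nearly the same balance in all groups. Large subunit genes gave 58.0% ± 0.931 of member reads in young WT, 56.8% ± 0.463 in young KO, 58.0% ± 0.038 in old WT and 57.6% ± 0.113 in old KO (SD, n = 2). Their summed CPM was 992 ± 52.8 in old WT and 673 ± 5.83 in old KO, beside 720 ± 37.2 and 496 ± 6.6 for the small subunit. Both subunits were thus lower in KO at that age by more than the spread between libraries.

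The order of the groups also differed from that of other genes. By group mean CPM, 38 of 74 members (51.4%) were highest in WT at 18 months, against 27.6% of all genes tested, and 43 (58.1%) were lowest in KO at 18 months, against 24.0%. WT at 6 months was the highest group for 26 members (35.1%) and for 38.6% of all genes. By subunit, KO at 18 months was lowest for 24 of 44 large and 19 of 30 small subunit genes.

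In old mice, many ribosomal protein genes were lower in the libraries labelled KO than in WT and none was higher. KO against WT at 18 months gave 32 of 74 members lower (43.2%) and 0 higher at an adjusted p below 0.05 (edgeR), where 17.4% of all genes tested were lower and 14.7% higher. At an unadjusted p below 0.05, 36 were lower and 2 higher, and DESeq2 gave 24 lower and 0 higher. The lower members included 19 of 44 large and 13 of 30 small subunit genes, which is 43.2% and 43.3%. The median log2 fold change was -0.33 over the 74 members, -0.38 over the large and -0.32 over the small subunit, against 0.00 over all genes. Among members with a mean of at least 10 CPM, 27 of 38 were lower (71.1%), where 27.2% of all genes at that level were lower.

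**Figure D3:**
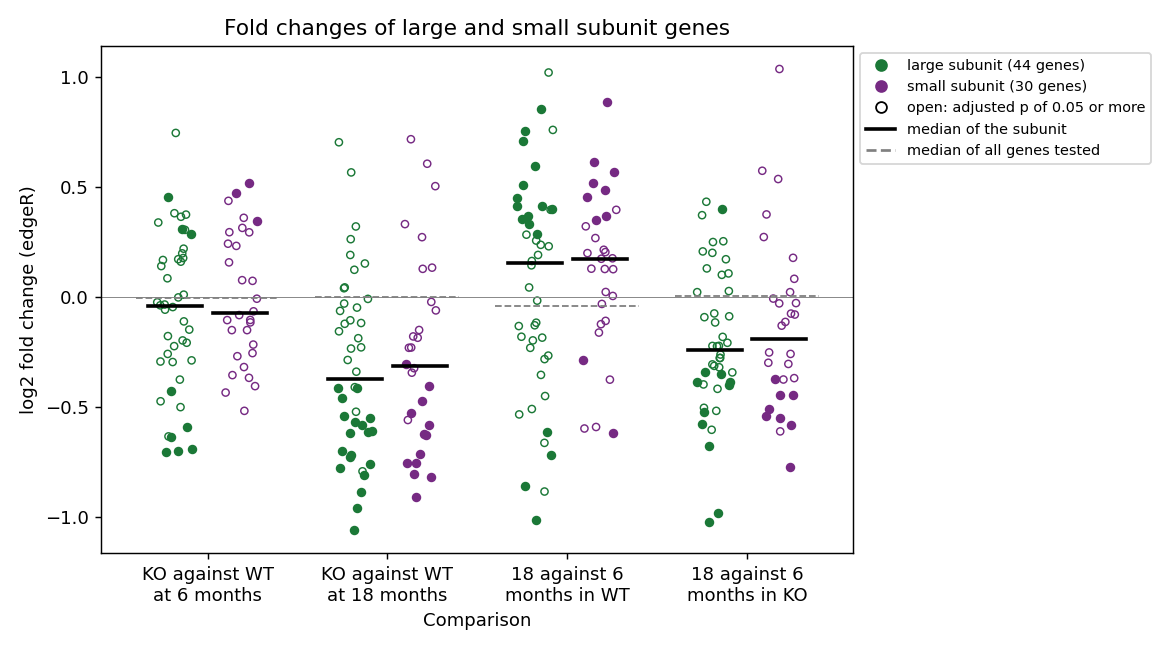
Log2 fold change (edgeR) of the 44 large and 30 small subunit genes tested in each pairwise comparison, with filled points past the adjusted p of 0.05, black bars at the subunit median and dashed lines at the median of all genes tested. In KO against WT at 18 months the medians are -0.38 and -0.32, and all filled points lie below 0.

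Rpl4 showed the smallest p among the members. It had 235 and 231 CPM in old WT and 129 and 137 CPM in old KO, a log2 fold change of -0.81 ± 0.0585 (SE, adjusted p = 1.68e-10, edgeR). The groups did not overlap, and WT was 1.75-fold higher.
Rps3, which lines the entry of the message into the small subunit, had 138 and 155 CPM in WT and 87.3 and 87.0 in KO (log2 fold change -0.76, adjusted p = 6.6e-09). Rpl8 had 131 and 141 CPM in WT and 79.8 and 85.3 in KO (log2 fold change -0.73, adjusted p = 7.42e-09). In each of these genes both KO libraries lay below both WT libraries.
Rps9, which bears on decoding accuracy, had 58.2 and 65.0 CPM in WT and 37.0 and 36.3 in KO (log2 fold change -0.75, adjusted p = 2.23e-07). Beyond these, Rps15 fell 1.76-fold and Rps26, at the exit of the message, 1.88-fold. The lower members ranged from -1.06 in Rpl35 to -0.31 in Rps24 on the log2 scale, and Rpl35 was measured at only 1.55 to 4.26 CPM at 18 months.

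The proteins of the stalk gave one pattern at this age. Rplp1 had 55.4 and 61.7 CPM in WT and 29.5 and 31.1 in KO (log2 fold change -0.96 ± 0.0957, adjusted p = 3.33e-08, edgeR). Rplp0, the anchor of the stalk, had 50.7 and 64.7 CPM in WT and 31.8 and 36.5 in KO (log2 fold change -0.78, adjusted p = 3.39e-06). Rplp2, the partner of Rplp1, had 22.7 and 29.2 CPM in WT and 14.2 and 17.0 in KO (log2 fold change -0.76, adjusted p = 0.00044), and the adjusted p was 0.0513 without the second WT library. All 3 genes had both KO libraries below both WT libraries.

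Members without a call at 18 months were spread on both sides of 0. Rpl3, which shapes the peptidyl transferase centre, had 12.4 and 11.5 CPM in WT and 14.6 and 15.1 in KO (log2 fold change 0.32, adjusted p = 0.0799), and with total count scaling its adjusted p was 0.0127. Rpsa, also known as the laminin receptor precursor, had 5.64 and 8.24 CPM in WT and 6.03 and 5.18 in KO (log2 fold change -0.34, adjusted p = 0.25). Rps6, the substrate of S6 kinase, had 2.01 and 2.46 CPM in WT and 2.37 and 1.47 in KO (log2 fold change -0.23, adjusted p = 0.66). Both Rpsa and Rps6 had overlapping groups at a few CPM, and whether depth kept them from a call was not tested.

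The count at 18 months varied with the library left out, and so did the count over all genes tested. The members' median log2 fold change stayed between -0.359 and -0.281 with each library left out. Without the second WT library 19 of the 32 calls remained, and 17 remained under every alternative tried, among them Rpl4, Rps3, Rpl8, Rplp0, Rplp1, Rps9, Rps15 and Rps26. Without both WT libraries of 6 months, which stood apart, 34 members were lower and 0 higher. Over the same comparison 10 of 10 oligodendrocyte markers (median log2 fold change -0.66), 7 of 8 oligodendrocyte precursor (-0.61), 7 of 8 microglia (-1.42) and 6 of 8 blood markers (-1.66) were lower. Astrocyte markers were higher in 10 of 10 (1.09) and pericyte and smooth muscle markers in 6 of 8 (0.96). Of 8 parvalbumin interneuron markers tested, 4 were lower and 1 higher (-0.51). Excitatory neuron markers were lower in 3 of 8 and higher in 1 (-0.96), and endothelial markers lower in 1 of 8 and higher in 2 (0.30). The part of these shifts in the result was not tested.

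**Figure D4:**
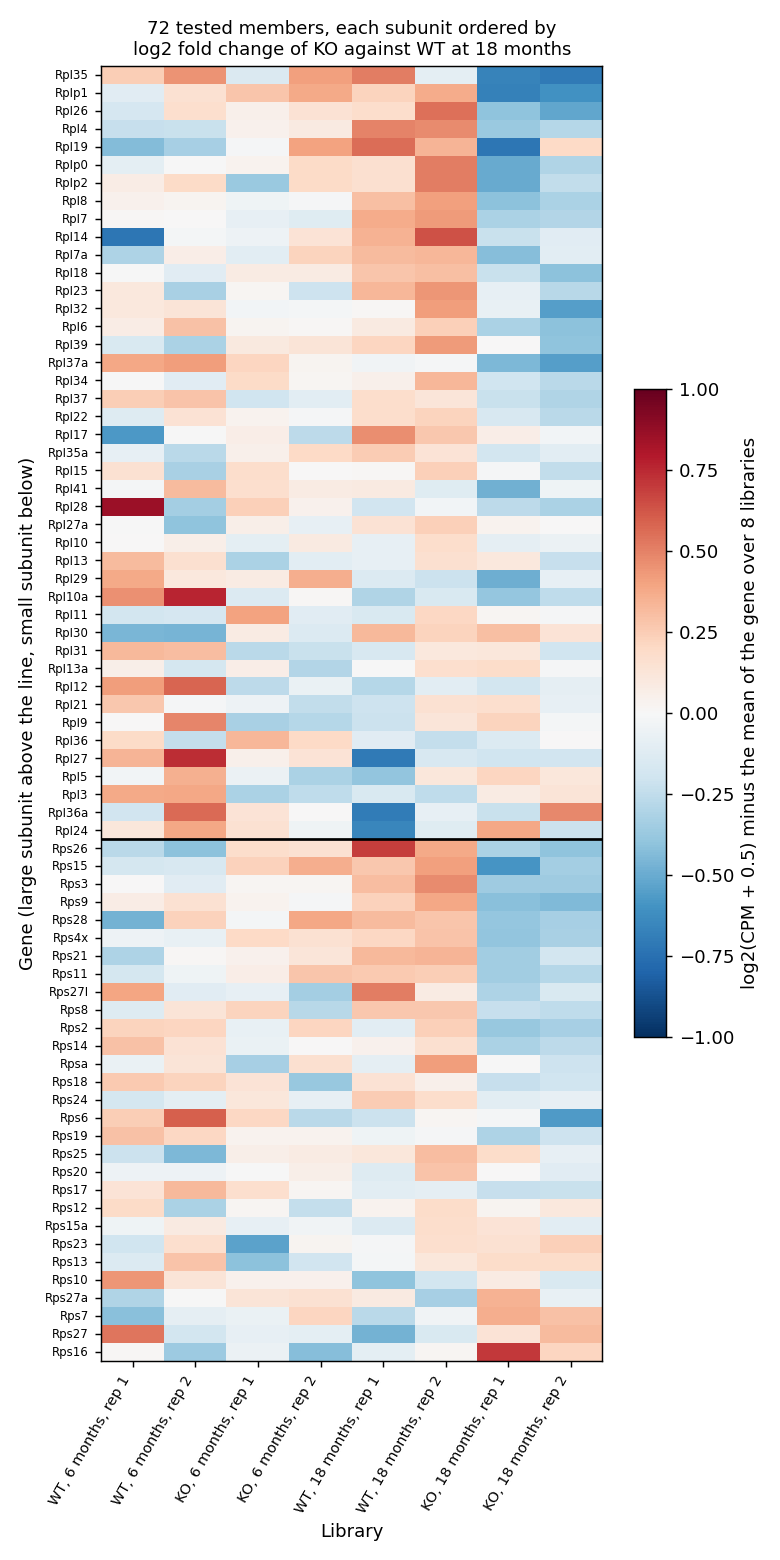
Level of 72 of the 74 tested members in each library, as log2(CPM + 0.5) minus the mean of the gene over the 8 libraries, with large subunit genes above the line and small subunit genes below, each ordered by the genotype effect in old mice. By this sorting, the upper rows of both blocks are red in old WT and blue in old KO libraries. In the lower rows of the large subunit block, Rpl3, Rpl9, Rpl12 and Rpl27 are among the members highest in WT at 6 months by group mean.

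With age in WT, more members rose than fell. At 18 against 6 months in WT, 21 of 74 members were higher and 6 lower (28.4% and 8.11%), where 28.2% of all genes tested were higher and 30.8% lower, so the share of higher members was near the background and the share of lower ones under it. The median log2 fold change of the members was 0.17, against -0.04 over all genes. By subunit 13 large and 8 small subunit genes were higher and 4 and 2 were lower. Of members with a mean of at least 10 CPM, 19 of 38 (50.0%) were higher, against 39.4% of all genes at that level.

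Rpl4 had 142 and 143 CPM in young WT, against the values of 235 and 231 in old WT given above, a log2 fold change of 0.71 ± 0.0612 (SE, adjusted p = 4.47e-10, edgeR). Rps3 had 112 and 103 CPM at 6 months and was 1.37-fold higher (adjusted p = 6.9e-06). The ages did not overlap in either gene.
Rps26 rose from 14.2 and 12.8 CPM to 28.1 and 22.5 CPM (log2 fold change 0.89, adjusted p = 1.9e-05). Rpl14 rose from 12.3 and 20.3 CPM to 26.3 and 32.3 CPM (log2 fold change 0.86, adjusted p = 0.000103), with the young libraries far apart from each other. Rps15 rose from 41.8 and 42.2 CPM to 57.1 and 62.9 CPM (log2 fold change 0.52, adjusted p = 0.000115). All 3 had both old libraries above both young ones.

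Another 6 members were lower in old WT, 3 of them with a mean of at least 10 CPM. Rpl10a, which forms the mobile stalk beside the exit site for transfer RNA, fell from 19.3 and 24.0 CPM to 11.2 and 12.5 CPM (log2 fold change -0.86, adjusted p = 4.34e-05, edgeR). Rpl3 fell from 18.1 and 18.2 CPM to 12.4 and 11.5 CPM (log2 fold change -0.61, adjusted p = 0.00113). Rpl12, at the base of the acidic stalk, fell from 11.5 and 13 CPM to 6.90 and 7.85 CPM (log2 fold change -0.72, adjusted p = 0.00203). These 3 had no overlap between the ages and kept the call under every alternative tried.
Rpl27 (log2 fold change -1.01), Rps10 (log2 fold change -0.62) and Rps19 (log2 fold change -0.29), the last known from Diamond-Blackfan anaemia, were also lower, with adjusted p of 0.00326, 0.0353 and 0.0426. Their adjusted p rose to 0.0614 for Rpl27 without the second WT library of 6 months, to 0.239 for Rps10 without the first, and to 0.201 for Rps19 with no filter on low counts. Without the second WT library of 18 months 11 of the 21 higher calls remained, and Rplp0 and Rplp1 were among those lost, with adjusted p of 0.175 and 0.19. DESeq2 gave 13 higher. WT at 6 months cannot be left out here. With age in WT, oligodendrocyte markers were higher in 10 of 10 (median log2 fold change 1.59) and blood markers in 6 of 8 (1.13). Astrocyte (10 of 10, -1.65), parvalbumin interneuron (6 of 8 tested, -2.54), excitatory neuron (6 of 8, -1.67), oligodendrocyte precursor (7 of 8, -1.21) and pericyte and smooth muscle markers (8 of 8, -1.0) were lower. Endothelial markers were lower in 6 of 8 and higher in 1 (-0.71), and microglia markers were higher in 2 of 8 (0.27). The part of these shifts in the calls was not tested.

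In young mice the few members called in the libraries labelled KO moved in both directions. KO against WT at 6 months gave 6 of 74 members higher and 6 lower (8.11% each), fewer than the 19.2% higher and 19.6% lower among all genes tested. The median log2 fold change was -0.05 over the members and -0.0048 over all genes. Higher members were 3 large and 3 small subunit genes, while the 6 lower ones all belonged to the large subunit, a difference between subunits that was not tested.

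Rpl4 had 172 and 177 CPM in KO at 6 months, against 142 and 143 in WT (log2 fold change 0.29, adjusted p = 0.000668, edgeR). Rps15 had 55.5 and 61.1 CPM in KO against 41.8 and 42.2 in WT (log2 fold change 0.47, adjusted p = 0.000732). These genes, with no overlap of the groups, stayed past the threshold under every alternative tried.
Rps26, Rplp1 and Rpl30 were higher as well, at 1.43-fold, 1.24-fold and 1.37-fold, but adjusted p rose to 0.0758 for Rps26 without the second WT library, to 0.209 for Rplp1 without the first, and to 0.258 for Rpl30 without the first KO library. Among the lower members, Rpl10a had 12.6 and 14 CPM in KO against 19.3 and 24.0 in WT (log2 fold change -0.71, adjusted p = 0.000856). Rpl3 had 11 and 11.5 CPM in KO against 18.1 and 18.2 in WT (log2 fold change -0.69, adjusted p = 0.00086). Both kept the call throughout.
Rpl12 was 1.62-fold lower (adjusted p = 0.00529, and 0.07 without the first KO library). Rpl37 and Rpl9 were 1.35-fold and 1.51-fold lower. Their highest adjusted p was 0.122 for Rpl37 without the first KO library and 0.325 for Rpl9 without the second WT library. Without the first KO library 2 of the 6 lower calls remained, and 3 without the second KO or the second WT library. DESeq2 gave 5 members higher and 3 lower. In KO at this age oligodendrocyte markers were higher in 10 of 10 (median log2 fold change 1.12) and blood markers in 8 of 8 (2.80). Astrocyte (10 of 10, -0.93), oligodendrocyte precursor (6 of 8, -1.10) and parvalbumin interneuron markers (6 of 8 tested, -1.29) were lower. Pericyte and smooth muscle markers were higher in 4 of 8 and lower in 1 (0.196), and microglia markers were higher in 2 of 8 (0.369). Excitatory neuron markers were lower in 2 of 8 (-0.0579), and endothelial markers lower in 2 of 8 and higher in 1 (-0.057). Whether these shifts bear on the calls was not tested.

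With age in KO, more members fell than rose, and most did not pass the test. At 18 against 6 months in KO, 18 of 74 members were lower (24.3%) and 1 higher (1.35%), where 17.9% of all genes tested were lower and 13.8% higher. The median log2 fold change was -0.24, against 0.00 over all genes, and 10 large and 8 small subunit genes were lower. Rplp1 fell from 57.7 and 62.0 CPM to 29.5 and 31.1 CPM (log2 fold change -0.98 ± 0.0973, adjusted p = 4e-08, edgeR). Rps15 fell from 55.5 and 61.1 CPM to 31.2 and 37.3 CPM (log2 fold change -0.77, adjusted p = 1.41e-06). No old KO library reached a young one in either gene.
Rpl4 (1.31-fold), Rps3 (1.30-fold) and Rps9 (1.36-fold) were also lower, with adjusted p of 2.22e-05, 0.000223 and 0.000452. The single higher member was Rpl3, at 14.6 and 15.1 CPM against 11 and 11.5 (log2 fold change 0.40, adjusted p = 0.036), and DESeq2 gave an adjusted p of 0.168 for it. Without the second KO library of 6 months 11 of the 18 lower calls remained, DESeq2 gave 10 lower, and 23 were lower without both WT libraries of 6 months. Blood markers were lower with age in KO in 8 of 8 (median log2 fold change -4.06), excitatory neuron markers in 7 of 8 (-2.58), parvalbumin interneuron markers in 6 of 8 tested (-1.67), microglia markers in 7 of 8 (-1.38), oligodendrocyte precursor markers in 6 of 8 (-0.55) and oligodendrocyte markers in 6 of 10 (-0.34). Astrocyte markers were higher in 8 of 10 (0.28). Pericyte and smooth muscle markers were lower in 4 of 8 (-0.257), and endothelial markers in 1 of 8 (-0.0788). The part of these shifts in the calls was not tested.

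Whether the effect of genotype changed with age was tested by the interaction, which subtracts the genotype effect (log2, KO over WT) in young mice from that in old mice. It was negative in 24 of 74 members and positive in 4 (32.4% and 5.41%), where 20.7% of all genes tested had a negative and 18.4% a positive one. The interaction uses all 8 libraries and so shares them with the comparisons above. Its median was -0.29 over the members and 0.01 over all genes. Markers moved with it too, negative in 10 of 10 oligodendrocyte (median -1.84), 7 of 8 microglia (-1.75) and 8 of 8 blood markers (-5.23). Astrocyte markers were positive in 10 of 10 (2.00) and pericyte and smooth muscle markers in 5 of 8 (0.695). Of 8 oligodendrocyte precursor markers 5 were positive and 1 negative (0.709). Parvalbumin interneuron markers gave 3 positive and 1 negative (0.87), excitatory neuron markers 1 and 3 (-0.827), and endothelial markers 2 and 1 (0.483). The part of these markers was not tested. Large subunit genes gave 14 negative and all 4 positive calls, and small subunit genes gave 10 negative ones.
Among the negative values with the smallest adjusted p were Rpl4 at -1.10 ± 0.0856, Rps15 at -1.29 ± 0.14, Rplp1 at -1.27 ± 0.139 and Rps3 at -0.83 ± 0.1 (log2, SE), with adjusted p from 1.76e-10 to 2.84e-07 (edgeR). In the first 3 of these KO was above WT at 6 months and below it at 18 months. The 4 positive values were 1.01 for Rpl3, 0.74 for Rpl12, 0.72 for Rpl9 and 0.60 for Rpl10a, with adjusted p of 0.000344, 0.0281, 0.0331 and 0.0336. Rpl3 kept its call under every alternative tried, while the adjusted p of the other 3 rose to 0.137 (DESeq2) for Rpl12 and to 0.241 for Rpl9 and 0.163 for Rpl10a without the second WT library of 6 months.

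**Figure D5:**
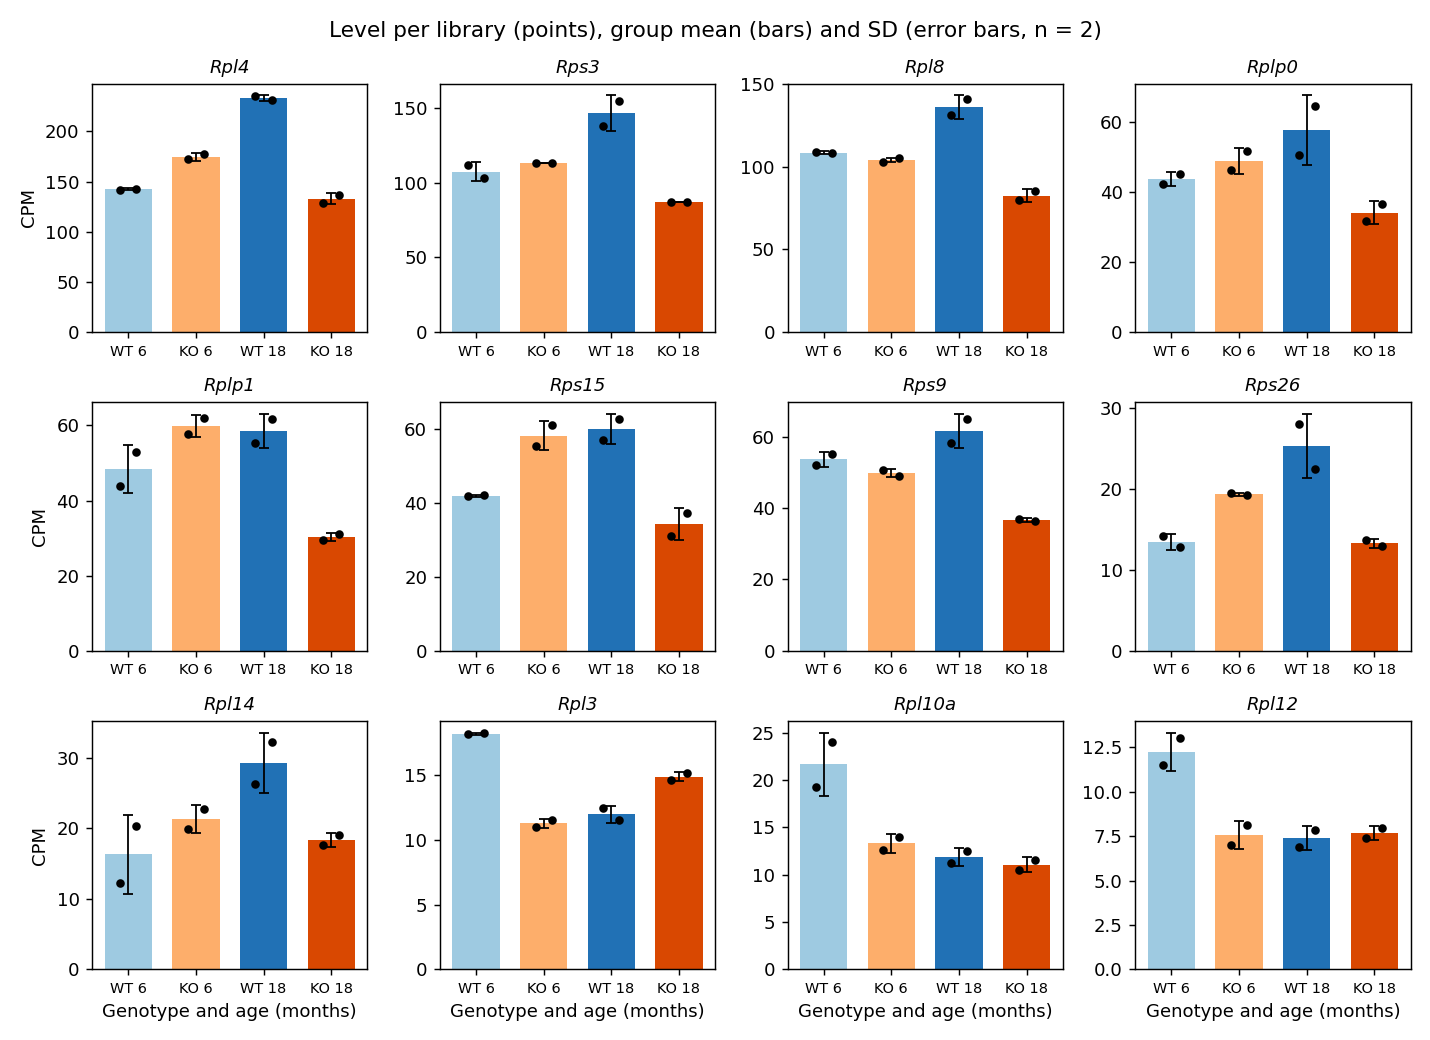
CPM of 12 members in each library (points), with the group mean as a bar from 0 and the SD as an error bar (n = 2). Rpl4 to Rpl14 are highest or nearly so in old WT and lower in old KO, while Rpl3, Rpl10a and Rpl12 are highest in WT at 6 months.

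The 4 genes with a positive interaction were also described by their annotation, after their values had been seen. Rpl3, Rpl10a and Rpl9 had only 14.4%, 11.9% and 6.7% unique 50-base stretches, and Rpl12 had 50.6%. Their merged exons were 2.35, 3.33, 4.17 and 2.9 times as long as the principal transcript, in the order Rpl3, Rpl10a, Rpl9 and Rpl12, against 1.3 for Rpl4, 1.26 for Rps15 and 1.0 for Rplp1. The same ratio was 2.35 for Rps3, 2.27 for Rps26, 3.88 for Rps24 and 6.79 for Rpl35a, which moved the other way. Of the 38 tested members under 50% unique, 3 had a positive interaction (7.89%) and 8 a negative one (21.1%). The shares of all genes tested were 18.4% and 20.7%, so neither feature was particular to the 4 genes. With reads of the named pseudogenes added to the members, all 4 genes kept their interaction calls. Whether reads on alternative exons, or reads of copies counted on the members, bear on these genes was not tested.

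Members with a higher level per length had lower fold changes between genotypes in old mice. Across the 74 members Spearman's rho between level per length and the genotype effect (log2) in old mice was -0.709, and over the 18205 genes tested it was -0.219. Level and fold change were measured in the same libraries. Of the 36 members with at least 50% unique stretches, 22 (61.1%) were lower in KO at 18 months, and of the 38 less unique ones 10 (26.3%) were. Among all genes tested 17.4% were lower. By level, 27 of 38 members with a mean of at least 10 CPM and 5 of 36 under it were lower. Unique share and level per length went together (Spearman's rho 0.328 over 80 genes), and their parts were not tested apart. Members with a pyrimidine run near the start were lower in 11 of 27 cases (40.7%) and those without in 12 of 29 (41.4%). Ets cores gave 9 of 22 with and 14 of 34 without.

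Copies of members that differ in tissue use were measured beside them. Rpl22 had 47.5 and 49.2 CPM in old WT and 37.6 and 34.9 in old KO (log2 fold change -0.42, adjusted p = 0.00136, edgeR), while its paralogue Rpl22l1 had 5.02 and 9.16 CPM in WT and 7.71 and 6.38 in KO, with overlapping groups. Rpl39, which lies in the exit tunnel, had 10.3 and 12 CPM in WT and 8.86 and 6.56 in KO (log2 fold change -0.54, adjusted p = 0.0203, and 0.285 without the second WT library), and Rpl39l had 3 reads in all. Rpl7 fell 1.64-fold in KO at 18 months (adjusted p = 7.09e-07), and the related Rpl7l1 had 32.6 and 31.6 CPM in WT and 31.5 and 28.6 in KO. Where one copy passed the test and the other did not, the difference between the copies was not tested.
Rps4x, the X-linked form, had 17.2 and 18.2 CPM in old WT and 11.2 and 11.8 in old KO (log2 fold change -0.63, adjusted p = 0.000722). Rps27 had 1.63 and 2.16 CPM in WT and 2.75 and 3.19 in KO (adjusted p = 0.168), and Rps27l, a target of p53, had 7.52 and 5.47 CPM in WT and 4.05 and 4.57 in KO (adjusted p = 0.0748). Rpl10, which joins the large subunit late, lay between 7.79 and 9.55 CPM in all 8 libraries. Rpl36a had 1.13 and 2.00 CPM in old WT and 1.76 and 3.19 in old KO, and Rpl36al at most 1.13 CPM in any library. Rps27 and Rpl10 are 1.4% and 14.6% unique, so their values may hold reads of copies.

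Other genes of ribosome production and translation were read from lists chosen by function, and their counts are to be read against the shares of all genes tested. Those were 14.7% higher and 17.4% lower in old KO against old WT, 19.2% and 19.6% in young KO against young WT, 28.2% and 30.8% with age in WT, and 13.8% and 17.9% with age in KO. Of 8 ribosomal proteins whose symbols fall outside the rule 6 were tested, and Rack1, a scaffold on the small subunit, was the single one called. It had 120 and 135 CPM in old WT and 83.7 and 91.7 in old KO (log2 fold change -0.55, adjusted p = 1.22e-06, edgeR). Fau, which encodes a ribosomal protein fused to a ubiquitin-like part, stayed at or under 2.76 CPM in every library.
Translation factors gave 22 of 46 lower (47.8%, against 17.4% of all genes) and 1 higher in KO at 18 months, and 29 higher (63.0%, against 28.2%) and 2 lower with age in WT. The median log2 fold change was -0.28 and 0.33 in these comparisons. At 6 months 18 of 46 were higher in KO and 3 lower, and with age in KO 2 were higher and 12 lower. Eef1a1, the elongation factor that brings transfer RNA and itself a TOP message, had 453 and 472 CPM in old WT and 232 and 253 in old KO (log2 fold change -0.93, adjusted p = 1.56e-11). Eef2, which moves the ribosome along the message, had 861 and 895 CPM in WT and 594 and 621 in KO (log2 fold change -0.53, adjusted p = 3.62e-08). Both thus had KO libraries wholly below WT libraries. Eef1a2, the form that replaces Eef1a1 in mature neurons and muscle, had 67.8 and 64.0 CPM in young WT and 13.8 and 13.5 in old WT (log2 fold change -2.27, adjusted p = 1.47e-14).
Ribosome assembly factors gave 18 of 74 lower (24.3%, against 17.4% of all genes) and 2 higher in KO at 18 months, among them Sbds, which frees the large subunit for joining (log2 fold change -0.60, adjusted p = 6.17e-07), and Pes1 (log2 fold change -0.61, adjusted p = 2.6e-05). With age in WT 29 were higher (39.2%, against 28.2%) and 8 lower, and Ncl, the nucleolar protein nucleolin, rose from 55.3 and 64.5 CPM to 117 and 112 CPM (log2 fold change 0.94, adjusted p = 3.84e-10). At 6 months 10 were higher and 9 lower in KO (13.5% and 12.2%, under the shares of all genes), and with age in KO 4 were higher and 6 lower. Mitochondrial ribosomal proteins gave 16 of 78 lower (20.5%, near the 17.4% of all genes) and 1 higher in KO at 18 months, with a median log2 fold change of -0.19, and 13 higher (16.7%, under the 28.2% of all genes) and 8 lower with age in WT. At 6 months 1 was higher and 9 lower in KO, and with age in KO 0 were higher and 5 lower, where an unadjusted p below 0.05 gave 4 and 10.
RNA polymerase I genes, which make ribosomal RNA, gave 2 of 17 lower and 0 higher in KO at 18 months (3 and 0 at an unadjusted p below 0.05), including Ubtf (log2 fold change -0.41, adjusted p = 6.69e-05, edgeR), and 4 each way with age in WT. The share lower at 18 months, 11.8%, was under the 17.4% of all genes. The list of mTORC1 and regulators of TOP messages gave 3 of 25 higher and 2 lower in KO at 18 months (12% and 8.0%, under the 14.7% and 17.4% of all genes) and 6 higher and 11 lower with age in WT. Mtor itself had 158 and 181 CPM in old WT and 179 and 186 in old KO, and it was lower in KO at 6 months (log2 fold change -0.31, adjusted p = 0.000526). Cnbp, a protein that binds TOP messages, had 166 and 156 CPM in old WT and 128 and 111 in old KO (log2 fold change -0.43, adjusted p = 2.94e-05).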

How the data were processed

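Counts of reads per gene were deposited by the authors for 8 libraries, and per the submitters' processing notes CASAVA 1.8.2, then the aligner STAR 2.5.2a, and featureCounts 1.5.0-p1 were used with the mm10 build. The sources used here do not give the annotation, the strand setting or the treatment of multimapping reads. Symbols, positions and exon lengths came from GENCODE for the same build, and promoter windows from RefSeq (GRCm38.p6).

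The 4 groups of 2 libraries were fitted in 1 model by the quasi-likelihood method of edgeR 4.0.16 (R 4.3.3) after TMM scaling. Genes were kept by filterByExpr (minimum count 10), and p-values were adjusted by Benjamini-Hochberg over 18205 genes, with calls below 0.05. SE is the absolute log2 fold change divided by the square root of F. CPM uses the TMM-adjusted totals of tested genes. The method was tested on simulated data. Alternatives were RLE and total count scaling, DESeq2 1.42.0, no filter, addition of pseudogene reads, 2 groups alone, a replicate block, each library left out, and, chosen after seeing the data, both WT libraries of 6 months left out.

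Members, lists and tests were chosen with earlier results of these data known. Named members were those with the smallest adjusted p and no overlap of groups, up to 6 in each direction (5 for the interaction), the 6 highest per length, all untested ones, and preset stalk proteins and paralogues; some named by this rule are left out of the text and figures, and Rpl35 and Rps24 were named after their values were seen. From each pathway list up to 2 genes a comparison with the smallest adjusted p were taken. Library totals of 6008175 to 13551218 counts limit the precision of members at a few CPM.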

Additional observations from a re-analysis of the deposited data

Results flagged for a closer look

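Groups of 2 libraries are too small for a check of single libraries, so the results listed here are members whose genotype effect differed between the ages by the interaction test (edgeR, adjusted p below 0.05), at most 5 in each direction. Rpl3 had an interaction of 1.01 on the log2 scale, Rpl12 of 0.74, Rpl9 of 0.72 and Rpl10a of 0.60, all with KO below WT at 6 months. Rpl4 had an interaction of -1.10, Rps15 of -1.29, Rplp1 of -1.27 and Rps3 of -0.83, all with KO below WT at 18 months. The interaction of Rpl12, Rpl9 and Rpl10a was lost under 6 of 14 alternatives each, and that of the other 5 members under 0 of 14.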

How the results depend on the processing

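No result reversed. Under total count scaling the median of all genes rose by 0.14 in KO against WT at 18 months and by 0.19 for the interaction, and 4268 genes were higher and 1848 lower at 18 months against 2679 and 3165 with TMM (6 months 3014 and 4058; age in WT 4367 and 6305; age in KO 3839 and 2543; interaction 4769 and 2651). The members' medians, to be read against that shift, were then -0.191 at 18 months, 0.071 with age in WT, -0.143 with age in KO and -0.096 for the interaction. Members higher in KO at 18 months were 0, and numbered 2 under total count scaling and 1 with no filter, with pseudogene reads added, or with the 2 groups alone; 1 of those with total count scaling was Rpl3. Members higher with age in KO numbered 2 under total count scaling or the 2 groups alone and 0 with DESeq2 or pseudogene reads added. DESeq2 also gave 3 lower at 6 months, 13 higher with age in WT, 10 lower with age in KO and 1 positive interaction, and no filter gave 2 positive interactions. With each library left out in turn the ranges were 2 to 7 lower at 6 months, 0 to 1 higher and 19 to 34 lower at 18 months, 11 to 24 higher with a median of 0.043 to 0.257 with age in WT, 0 to 2 higher and 11 to 22 lower with age in KO, and 1 to 5 positive interactions with a median of -0.444 to -0.257. The cause of these differences was not tested. Libraries of the same number did not pair (correlations of deviations from -5.24e-06 to 0.0758), and a replicate block gave 7 higher and 8 lower at 6 months, 33 lower at 18 months, 23 higher and 6 lower with age in WT, 1 higher and 22 lower with age in KO, and 4 positive and 26 negative interactions, with all 146 named results on the same side of the threshold. Tested members under 10 CPM gave 5 of 36 calls at 18 months with a median of -0.09, against -0.57 at 10 CPM or more; whether depth limits those calls was not tested.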
